A study of Mus musculus with 10 samples.

Results

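The Id genes and 6 genes of the bone morphogenetic protein (BMP) pathway were followed as mouse embryonic stem (ES) cells were turned into neural stem cells in culture. The 10 genes were listed by name (Id1, Id2, Id3, Id4, Bmp4, Bmp7, Bmpr1a, Smad6, Smad7 and Nog), and all 10 were among the 19938 genes measured, each by 1 probe set. ESC were cells of the R1 line, derived from strain 129/Sv, grown on mitomycin C-inactivated embryonic fibroblast feeders with 15% serum and Lif at 1000 U/ml. pNSC_L were primary spheres of primitive neural stem cells that the same line formed without serum in N2 medium with Lif at 1000 U/ml. pNSC_LF were such cells passaged with the same Lif, FGF at 10 ng/ml and heparin at 2 μg/ml. dNSC were definitive neural stem cells made from primitive ones in N2 and B27 with FGF and EGF at 20 ng/ml each and heparin at 2 μg/ml, without Lif. CNS_NSC were wild type neural stem cells of strain ICR, taken from the brain at E11.5 and grown with N2, FGF and EGF at 20 ng/ml each and heparin at 2 μg/ml. The 5 groups had 2 arrays each, called biological replicates in the labels. The ES-derived groups come from 1 line, and CNS_NSC differ from them in strain as well as in origin.

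BMP ligands bind paired type I and type II serine/threonine kinase receptors, which phosphorylate Smad1, Smad5 and Smad9; these join Smad4 and switch on target genes, of which the Id genes are the best known. Id proteins have a helix-loop-helix domain but no DNA-binding region, and they hold E proteins away from the proneural factors that need them as partners. In mouse ES cells BMP, from serum or added, acts with Lif to keep the cells undifferentiated through Id genes, whereas neural induction is favoured when BMP is blocked; in neural stem cells BMP restrains neuronal differentiation. Smad6 and Smad7 are inhibitory Smads that the pathway itself induces, and noggin, the product of Nog, binds BMPs outside the cell.

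Marker genes matched the cultures in part. The 5 ES cell markers (Pou5f1, Nanog, Zfp42, Klf4, Esrrb) averaged 12.02 in ESC, 12.16 in pNSC_L, 12.27 in pNSC_LF, 9.39 in dNSC and 7.21 in CNS_NSC on the log2 intensity scale. The 6 neural stem cell markers (Sox1, Pax6, Nes, Fabp7, Cdh2, Olig2) averaged 7.79, 7.66, 7.55, 10.71 and 11.71 in the same order, so the primitive cultures did not stand above ESC for them, and dNSC still held ES cell markers. Array medians over all probe sets lay between 7.66 and 7.76. Replicates differed most in CNS_NSC, where 277 genes were at least 1 log2 unit apart, and in pNSC_L, with 167, against 1 to 30 in the other groups. Lowest among all array values of the 10 genes was 6.82, near the lower quartile of gene levels (6.80), where RMA compresses differences. In whole cultures, fewer cells that express a gene and less RNA per cell cannot be told apart. Differences below are first group minus second in log2 units, ± SE from limma (n = 2 arrays per group), and the words rose and fell are kept for genes whose limma p, after Benjamini-Hochberg adjustment across the 19938 genes, was below 0.05. Precision is limited throughout by having 2 arrays per group. Intervals given are 95% intervals for 1 gene, not adjusted.

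The promoter stretches of the Id genes in the RefSeq table are shown because Id2 and Id3 fell while Id4 rose when spheres formed; the table matched 6 of the 10 genes, and 3 of the 4 Id genes. Each line gives the 250 bases before the annotated start, 5′ to 3′ on the gene's strand, GRCm38.p6, with capitals on matches to GGCGCC or to GGAGCC on either strand, GC-rich sequences of the kind Smads are known to bind. The Id2 window lies at chr12:25096093-25096342 on the minus strand, that of Id3 at chr4:136143572-136143821 and that of Id4 at chr13:48260866-48261115, both on the plus strand.
Id2: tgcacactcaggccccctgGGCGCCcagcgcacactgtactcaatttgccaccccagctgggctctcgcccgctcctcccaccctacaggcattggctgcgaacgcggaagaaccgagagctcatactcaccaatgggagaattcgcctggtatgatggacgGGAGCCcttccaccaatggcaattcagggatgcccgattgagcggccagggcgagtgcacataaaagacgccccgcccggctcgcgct
Id3: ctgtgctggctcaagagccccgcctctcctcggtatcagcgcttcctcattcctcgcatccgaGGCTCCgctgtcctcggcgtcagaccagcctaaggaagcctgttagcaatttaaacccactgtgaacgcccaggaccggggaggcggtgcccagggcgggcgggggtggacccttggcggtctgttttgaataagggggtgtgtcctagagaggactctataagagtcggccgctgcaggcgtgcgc
Id4: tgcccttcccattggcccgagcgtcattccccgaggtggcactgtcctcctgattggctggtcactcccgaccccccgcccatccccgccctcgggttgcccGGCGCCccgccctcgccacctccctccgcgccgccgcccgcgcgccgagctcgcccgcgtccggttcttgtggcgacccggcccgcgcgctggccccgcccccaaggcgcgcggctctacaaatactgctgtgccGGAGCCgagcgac
GGCGCC stood once in the Id2 window and once in that of Id4, and 9.59% of 32851 RefSeq promoter windows of this length held it. GGAGCC stood once in each of the 3, against 25.97% of all windows. The other motifs searched were the palindrome GTCTAGAC, in 0.17% of windows and in none of these 3, the E-box CANNTG, in 66.2% of windows and once in Id2, and CACNAG, in 36.7% of windows and once in Id4. GC content was 62.8% in the Id2 and Id3 windows and 75.6% in that of Id4, against a median of 52.4%. GGCGCC was thus present in 1 gene that fell and in the 1 that rose when spheres formed, and a match is a description of letters, not a site shown to be used.

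When ES cells formed spheres without serum and feeders, Id1, Id2 and Id3 fell and Id4 rose. Id1 read 8.52 and 8.62 on the pNSC_L arrays, against 10.14 and 10.04 on the ESC arrays. Id2 read 9.91 and 10.57 in pNSC_L, against 11.17 and 11.05 in ESC. Id3 read 6.98 and 6.82 in pNSC_L, against 7.97 and 7.81 in ESC. All 3 genes had both pNSC_L arrays below both ESC arrays. Id4 went the other way, with 9.43 and 10.30 in pNSC_L, against 7.83 and 7.66 in ESC, and the groups did not overlap. Id1 fell by 1.52 ± 0.19 (2.87-fold lower, adjusted p = 8.5e-04 by limma), Id3 by 0.99 ± 0.20 (adjusted p = 0.0092 by limma) and Id2 by 0.87 ± 0.21 (adjusted p = 0.021 by limma). Id4 rose by 2.12 ± 0.23, a 4.36-fold difference (adjusted p = 3.5e-04 by limma). Of the 10 genes 6 were called, 2 higher and 4 lower, where 13.4% of all genes were called, 6.56% higher and 6.79% lower. The labels change serum, feeders, N2 and sphere culture together, and their parts cannot be told apart.

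The calls on Id1 and Id4 held without each array in turn. That on Id2 was lost without pNSC_L replicate 1 (-0.54, adjusted p = 0.093), ESC replicate 1 (adjusted p = 0.13) or ESC replicate 2 (adjusted p = 0.084), and that on Id3 without ESC replicate 1 (adjusted p = 0.078), by limma with the lone array assumed to vary like the others.

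**Figure D1:**
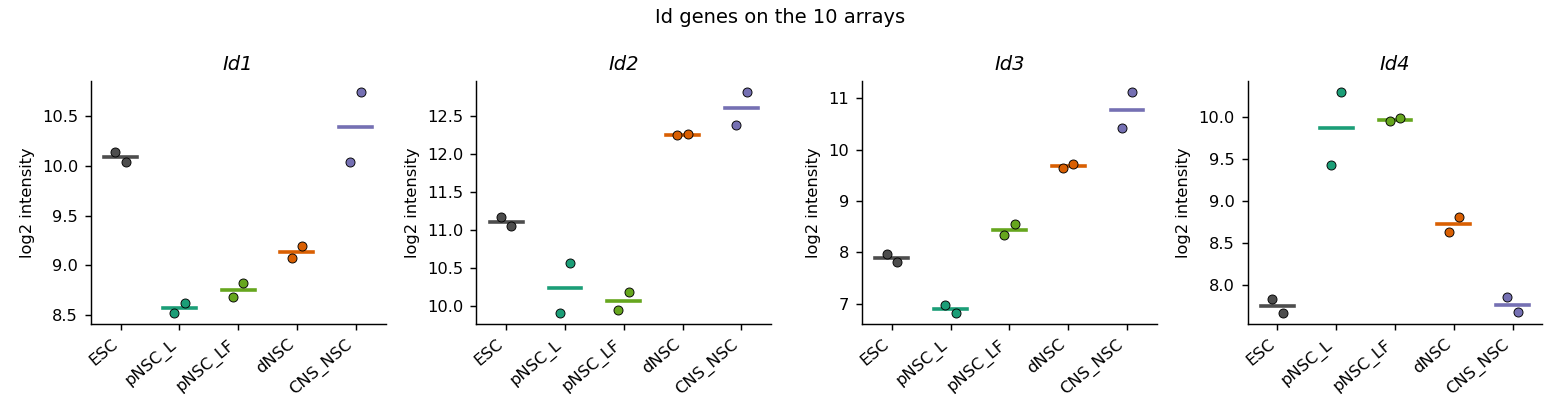
Log2 intensity of Id1, Id2, Id3 and Id4 by group; points are single arrays and bars the mean of 2 arrays, on vertical axes that differ between genes and do not start at 0. Id1, Id2 and Id3 are lower in pNSC_L than in ESC, and Id4 is higher in pNSC_L and pNSC_LF than in the other 3 groups.

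Passage with FGF and heparin parted Id3 from Id1 and Id2. Id3 read 8.33 and 8.54 in pNSC_LF, against 6.98 and 6.82 in pNSC_L, so that it stood above its ESC values as well. It rose by 1.54 ± 0.20 (2.90-fold, adjusted p = 0.0048 by limma), and it was the 1 gene of the 10 called in this step, where 1.78% of all genes were called, 1.1% higher and 0.677% lower. Id1 read 8.68 and 8.83 in pNSC_LF, against 8.52 and 8.62 in pNSC_L, a difference of 0.18 ± 0.19 with an interval from -0.24 to 0.60. For Id2 the pNSC_LF arrays gave 9.94 and 10.18, inside the range of the pNSC_L pair (-0.18 ± 0.21, interval from -0.64 to 0.29). Id4 also lay inside the range of the pNSC_L pair, with 9.95 and 10.00 in pNSC_LF, against 9.43 and 10.30 in pNSC_L (0.11 ± 0.23, interval from -0.40 to 0.61). Without pNSC_LF replicate 2 the Id3 difference was 1.43 with adjusted p = 0.063 by limma. Against ESC, pNSC_LF still differed by -1.34 ± 0.19 for Id1, -1.04 ± 0.21 for Id2 and 2.23 ± 0.23 for Id4 (adjusted p = 0.0013, 0.0076 and 2.1e-04 by limma, where 15.3% of all genes were called). For Id3, pNSC_LF differed from ESC by 0.55 ± 0.20 (adjusted p = 0.095 by limma).

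In the step to dNSC, which took away Lif, added EGF and B27 and raised FGF, Id2 and Id3 rose and Id4 fell. Id2 read 12.24 and 12.26 in dNSC, against 9.94 and 10.18 in pNSC_LF, a rise of 2.19 ± 0.21 (4.56-fold, adjusted p = 1.7e-05 by limma). Id3 read 9.65 and 9.71 in dNSC, against 8.33 and 8.54 in pNSC_LF, and rose by 1.24 ± 0.20 (adjusted p = 5.7e-04 by limma). Id4 came to 8.63 and 8.81 in dNSC, against 9.95 and 10.00 in pNSC_LF, a change of -1.25 ± 0.23 (adjusted p = 0.0013 by limma). These 3 genes kept their calls without each array in turn, and the parts of the changes in medium cannot be told apart. Id1 read 9.07 and 9.20 in dNSC, against 8.68 and 8.83 in pNSC_LF; the pairs did not overlap, but the difference of 0.38 ± 0.19 did not pass (adjusted p = 0.15 by limma). By limma it passed with the same size where CNS_NSC were left out of the shared spread (adjusted p = 0.016, an alternative chosen after seeing the data) or where only these 2 groups were fitted (adjusted p = 0.010). Of the 10 genes 8 were called, 5 higher and 3 lower, where 38.6% of all genes were called, 19.3% in each direction.

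The net result over all steps differed by gene. In dNSC against ESC, Id3 was 1.79 ± 0.20 higher, Id2 1.14 ± 0.21 higher and Id4 0.98 ± 0.23 higher, while Id1 had a difference of -0.96 ± 0.19. All 4 passed (adjusted p from 5.0e-05 to 0.0057 by limma), and of the 10 genes 6 were higher and 3 lower, where 40.5% of all genes were called, 20.7% higher and 19.9% lower. This comparison shares its dNSC and ESC arrays with the ones above.

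Embryo-derived neural stem cells gave the highest mean of the 5 groups for Id1, Id2 and Id3. Id1 read 9.07 and 9.20 in dNSC, against 10.04 and 10.74 in CNS_NSC (-1.26 ± 0.19, adjusted p = 5.2e-04 by limma). Id3 read 9.65 and 9.71 in dNSC, against 10.41 and 11.12 in CNS_NSC (-1.09 ± 0.20, adjusted p = 0.0016 by limma). For both genes dNSC lay below both CNS_NSC arrays. Id2 was at 12.24 and 12.26 in dNSC, against 12.38 and 12.81 in CNS_NSC, and -0.35 ± 0.21 did not pass (interval from -0.81 to 0.11). Id4 was higher in dNSC, at 8.63 and 8.81, against 7.85 and 7.67 in CNS_NSC (0.96 ± 0.23, adjusted p = 0.0076 by limma), a call lost without dNSC replicate 2 (adjusted p = 0.061). Of the 10 genes 7 were called here, 5 higher and 2 lower, where 34% of all genes were called, 17.6% higher and 16.5% lower.

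The order of the group means also draws on dNSC against pNSC_L, CNS_NSC against ESC and CNS_NSC against pNSC_L, where 39.9%, 43.8% and 43.6% of all genes were called. Ordered by mean level, Id1 ran from CNS_NSC and ESC, which did not differ past the test (adjusted p = 0.25 by limma), through dNSC, pNSC_LF and pNSC_L, whose neighbours did not pass the test (adjusted p = 0.15 and 0.79 by limma). Between dNSC and pNSC_L, which are not neighbours, Id1 did pass, being 0.56 ± 0.19 higher in dNSC (adjusted p = 0.038 by limma). Id2 had CNS_NSC and dNSC on top, then ESC, then the primitive groups, with the break on each side of ESC past the test. Id3 had CNS_NSC, dNSC, pNSC_LF, ESC and pNSC_L in that order, and of these neighbours pNSC_LF and ESC did not pass (adjusted p = 0.095 by limma). Id4 had pNSC_LF and pNSC_L on top, then dNSC, then CNS_NSC and ESC, which read 7.76 and 7.74 on average (adjusted p = 0.96 by limma). The group means spanned 1.82 log2 units for Id1, 2.53 for Id2, 3.87 for Id3 and 2.23 for Id4.

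The E proteins, which Id proteins bind, were measured for all 3 family members. Tcf12 read 12.53 on both dNSC arrays, against 10.00 and 10.01 in pNSC_LF, and rose by 2.53 ± 0.15 (5.76-fold, adjusted p = 7.8e-07 by limma). Tcf4 rose by 1.34 ± 0.13 in the same step (adjusted p = 1.6e-05 by limma), and with Tcf3 all 3 E proteins passed in the direction of Id2 and Id3, in a step where 19.3% of all genes were called higher. In the step to pNSC_L, where Id1, Id2 and Id3 fell, the 3 E proteins had a median difference of -0.04 and none passed the test by limma, either adjusted or at an unadjusted p below 0.05. In dNSC against CNS_NSC, where 34% of all genes were called, the E proteins differed in direction. Tcf4 was lower in dNSC (-0.77 ± 0.13, adjusted p = 8.8e-04 by limma) and Tcf3 higher (0.30 ± 0.10, adjusted p = 0.046 by limma). Tcf12 did not pass (-0.30 ± 0.15, adjusted p = 0.16 by limma).

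Of the ligands, Bmp4 fell and Bmp7 rose between ES cells and definitive neural stem cells. Bmp4, a ligand that patterns mesoderm and ventral tissues, read 11.68 and 11.87 in ESC, 11.23 and 11.10 in pNSC_L, 11.82 and 11.97 in pNSC_LF, 10.01 and 9.86 in dNSC, and 9.25 and 7.54 in CNS_NSC. Bmp7, a ligand active in kidney, eye and dorsal brain, read 8.44 and 8.53 in ESC, 8.77 and 9.13 in pNSC_L, 9.64 and 9.68 in pNSC_LF, 10.47 and 10.33 in dNSC, and 11.43 and 10.63 in CNS_NSC. Bmp4 thus read lower in dNSC than on any array of the 3 earlier groups, whereas each later ES-derived group had Bmp7 above the one before, with no overlap of arrays.

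In dNSC against pNSC_LF, Bmp4 changed by -1.96 ± 0.40 (3.90-fold lower in dNSC, adjusted p = 0.0029 by limma) and Bmp7 by 0.74 ± 0.22 (adjusted p = 0.023 by limma). The Bmp7 call was lost without any 1 of the 4 arrays (adjusted p from 0.066 to 0.12), but over all steps, dNSC against ESC, Bmp7 rose by 1.91 ± 0.22 (3.76-fold, adjusted p = 7.0e-05 by limma) and Bmp4 fell by 1.84 ± 0.40 (adjusted p = 0.0040 by limma), and neither lost its call without an array. In the first step Bmp4 differed by -0.61 ± 0.40 and Bmp7 by 0.46 ± 0.22, and in the second by 0.73 ± 0.40 and 0.71 ± 0.22, none of which passed (adjusted p from 0.16 to 0.49 by limma). The CNS_NSC arrays of Bmp4 lay 1.70 log2 units apart, against 0.14 to 0.19 in the other groups, and this spread enters the SE of every Bmp4 difference. With only pNSC_L and ESC fitted, Bmp4 was called in the first step (adjusted p = 0.041 by limma). Without CNS_NSC in the limma fit, both genes were called in the first step (adjusted p = 0.0081 for Bmp4 and 0.040 for Bmp7) and in the second (0.014 and 0.024), an alternative chosen after seeing the data.

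Against CNS_NSC, dNSC were higher for Bmp4 by 1.54 ± 0.40 (adjusted p = 0.013 by limma), with 10.01 and 9.86 in dNSC, against 9.25 and 7.54 in CNS_NSC. The size hung on single embryo-derived arrays, being 2.39 without CNS_NSC replicate 1 and 0.69 without CNS_NSC replicate 2. The limma call was lost without dNSC replicate 1 (adjusted p = 0.076) or replicate 2 (adjusted p = 0.053), and with only these 2 groups fitted (adjusted p = 0.072). For Bmp7, dNSC against CNS_NSC gave -0.63 ± 0.22, which did not pass (adjusted p = 0.0504 by limma). By limma it was -1.03 with adjusted p = 9.7e-04 without CNS_NSC replicate 2, and was also called with a trended prior (adjusted p = 0.045) or with the dimmest 30% of genes left out (adjusted p = 0.043).

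Bmpr1a, the type I receptor also called ALK3 and the main one for Bmp4 in early embryos, had its lowest means in the primitive cultures. It read 10.01 and 10.49 in pNSC_L, against 10.77 and 10.88 in ESC, a difference of -0.58 ± 0.15 (adjusted p = 0.027 by limma). That limma call was lost without pNSC_L replicate 1 (-0.34, adjusted p = 0.090), ESC replicate 1 (adjusted p = 0.097) or ESC replicate 2 (adjusted p = 0.16), and with only these 2 groups fitted (adjusted p = 0.100). In pNSC_LF it did not pass against ESC (-0.37 ± 0.15, adjusted p = 0.13 by limma) or against pNSC_L (0.20 ± 0.15, adjusted p = 0.64 by limma). In dNSC it read 11.42 and 11.41, against 10.40 and 10.51 in pNSC_LF, and rose by 0.96 ± 0.15 (adjusted p = 4.5e-04 by limma), a call kept without each array. Relative to ESC, dNSC were higher by 0.59 ± 0.15 (adjusted p = 0.0084 by limma; 0.062 without ESC replicate 1). In dNSC against CNS_NSC, where the CNS_NSC arrays gave 11.83 and 11.78, the difference was -0.40 ± 0.15 (adjusted p = 0.061 by limma). It passed under 4 alternatives, with adjusted p from 0.025 to 0.047 by limma.

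The inhibitory Smads behaved differently from each other. Smad7, which blocks receptors of the BMP and TGF-beta branches, read 11.44 and 11.06 in pNSC_L, against 10.60 and 10.14 in ESC, and rose by 0.87 ± 0.19 (adjusted p = 0.012 by limma). In pNSC_LF it read 11.42 and 11.12, overlapping the pNSC_L arrays (0.02 ± 0.19 against pNSC_L, interval from -0.40 to 0.43). In dNSC it read 8.81 and 8.83, below both pNSC_LF arrays, a difference of -2.45 ± 0.19 (5.46-fold lower, adjusted p = 3.8e-06 by limma). CNS_NSC were lower again, at 7.41 and 7.13, and dNSC exceeded them by 1.55 ± 0.19 (adjusted p = 1.1e-04 by limma). Against ESC, Smad7 in dNSC was lower as well (-1.56 ± 0.19, adjusted p = 8.7e-05 by limma). Smad7 thus moved opposite to Id1, Id2 and Id3 when spheres formed and opposite to Id2 and Id3 in the step to dNSC. The rise in pNSC_L was not called by limma without pNSC_L replicate 1 (adjusted p = 0.071) or ESC replicate 2 (adjusted p = 0.11).

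Smad6, the inhibitory Smad that acts mainly on the BMP branch, did not pass the test in any step among the ES-derived groups. Its arrays lay between 8.26 and 8.60 in ESC, pNSC_L and pNSC_LF, and read 8.31 and 8.13 in dNSC. The first step gave 0.04 ± 0.13 (interval from -0.25 to 0.34) and dNSC against ESC gave -0.17 ± 0.13 (interval from -0.47 to 0.12), so that changes of the size seen for Id1 lie outside these intervals. CNS_NSC, at 7.53 and 7.66, stood below all other arrays, and dNSC were higher by 0.62 ± 0.13 (adjusted p = 0.0043 by limma).

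Nog was highest in dNSC. It read 8.49 and 8.48 in dNSC, against 7.75 and 7.95 in pNSC_LF, and rose by 0.64 ± 0.13 (1.56-fold, adjusted p = 0.0027 by limma). Among ESC, pNSC_L, pNSC_LF and CNS_NSC no pair of neighbours in its order passed the test (adjusted p from 0.70 to 0.98 by limma). In pNSC_L against ESC, Nog differed by 0.12 ± 0.13 (interval from -0.17 to 0.41) and did not pass. Against ESC, dNSC were higher by 0.74 ± 0.13 (adjusted p = 0.0011 by limma). Relative to CNS_NSC, dNSC were higher by 0.54 ± 0.13 (adjusted p = 0.0084 by limma), a call lost without dNSC replicate 1 or 2 (adjusted p = 0.053 and 0.050).

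**Figure D2:**
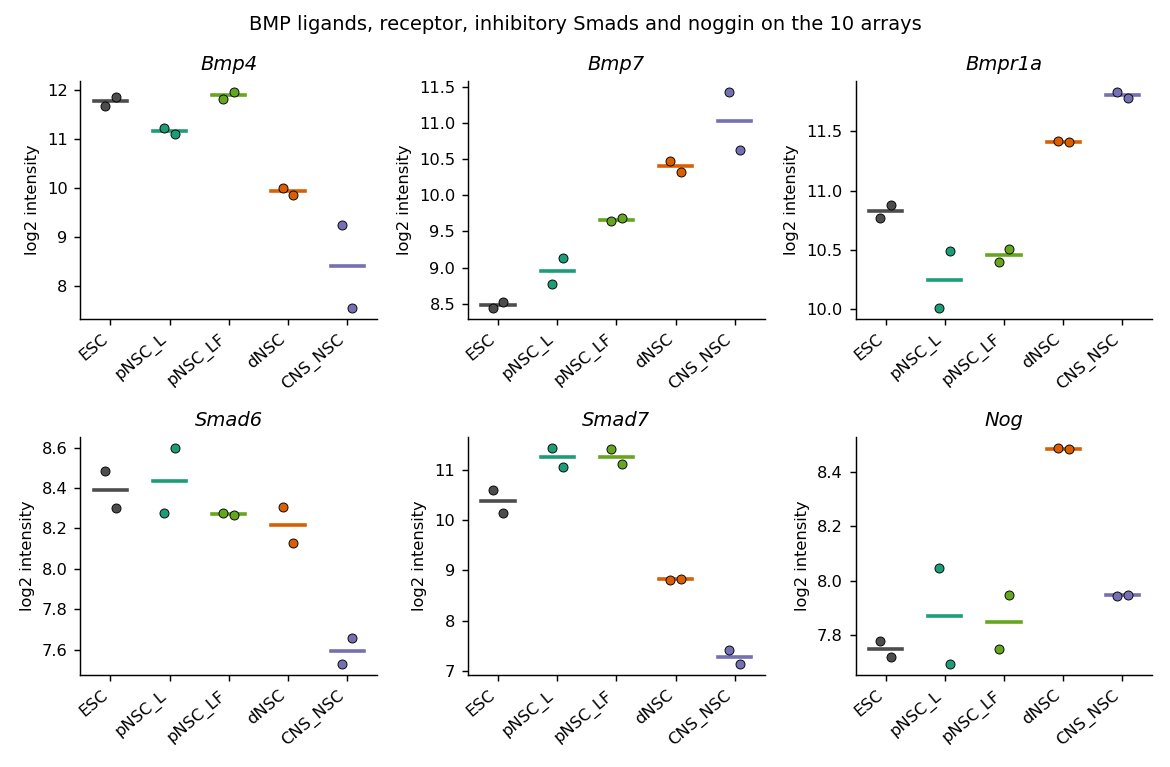
Log2 intensity of Bmp4, Bmp7, Bmpr1a, Smad6, Smad7 and Nog by group; points are single arrays and bars the mean of 2 arrays, on vertical axes that differ between genes and do not start at 0. Bmp4 and Smad7 are high through pNSC_LF and lower in dNSC and CNS_NSC, Bmp7 climbs from ESC to dNSC, and the CNS_NSC arrays of Bmp4 lie 1.70 apart.

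**Figure D3:**
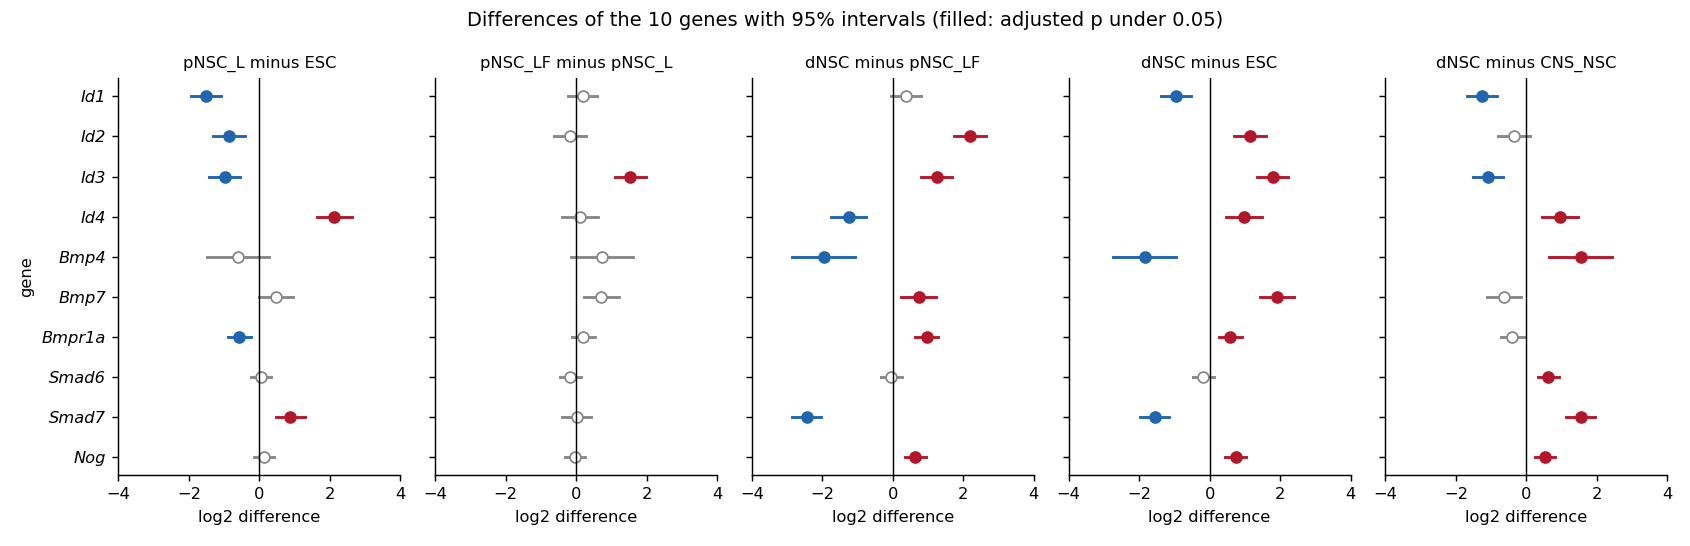
Difference in log2 units of the 10 genes in 5 comparisons, with 95% intervals for single genes from limma; filled red points are higher and filled blue points lower in the first group at adjusted p below 0.05, and open grey points did not pass. Id4 and Smad7 lie opposite to Id1, Id2 and Id3 in the first panel, and only Id3 passes in the second.

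The rest of the pathway was described through 65 listed genes, 64 of them measured, in 6 lists: ligands, receptors and co-receptors, Smads with their nuclear partners, secreted antagonists and modulators, other target genes, and the E proteins. In the step to pNSC_L 12 of the 64 were called (18.8%), 8 higher and 4 lower, near the 13.4% of all genes. The shares of all genes given here include dim genes, whereas none of the 10 genes was among the dimmest 30%. With that 30% left out, 2882 of 13956 genes and 13 of 51 listed genes were called in this step. In pNSC_LF against pNSC_L 1 was called, higher (1.56%, against 1.78% of all genes), while at an unadjusted p below 0.05 limma gave 8 higher and 4 lower. In dNSC against pNSC_LF 38 were called (59.4%, against 38.6% of all genes), 36 higher and 2 lower where all genes had 19.3% in each direction, with a median difference of 0.46, against -0.01 over all genes. Both the listed genes and all genes had more calls in the step to dNSC than in the earlier steps, and most listed genes called there were higher in dNSC.

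When spheres formed, 2 of the 12 other ligands rose and none fell; the counts by list in this step stand beside 13.4% of all genes called, and the share called was at or below 20% in every list but the receptors (36.4%). Bmp2, a ligand close to Bmp4, read 6.80 and 6.77 in pNSC_L, against 6.10 and 6.14 in ESC, a rise of 0.67 ± 0.11 (adjusted p = 0.0042 by limma). The Bmp2 arrays of both groups lay below the lower quartile of gene levels (6.805), so the size of this rise is not sure. Of the 11 receptors and co-receptors 2 rose and 2 fell; Bmpr2, the type II receptor specific to BMPs, fell by 0.94 ± 0.16 (adjusted p = 0.0038 by limma), in the same direction as Bmpr1a. Of the 10 Smads and nuclear partners 2 fell and none rose. Skil, a nuclear protein that represses Smad-driven transcription, read 8.87 and 9.30 in pNSC_L, against 10.47 and 10.66 in ESC, and fell by 1.48 ± 0.16 (adjusted p = 3.6e-04 by limma). Of the 16 measured antagonists 3 rose and none fell, among them Grem1, a secreted BMP antagonist, by 1.16 ± 0.15 (adjusted p = 0.0010 by limma) and follistatin, product of Fst, by 0.80 ± 0.14 (adjusted p = 0.0052 by limma; 0.053 without ESC replicate 2). Of the 12 other targets 1 rose, the T-box gene Tbx20, by 1.45 ± 0.23 (adjusted p = 0.0028 by limma).

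Markers of other cells moved in this step too. Over all genes 13.4% were called here, 6.56% higher and 6.79% lower. The 10 markers of feeder fibroblasts averaged 7.77 and 7.98 on the pNSC_L arrays, against 7.25 and 7.36 on the ESC arrays. By limma 4 of them were higher and 1 lower. Dcn moved most, with a mean of 9.60 in pNSC_L (arrays 8.79 and 10.41), against 6.27 in ESC. Thy1 and Pdgfrb had lower means in pNSC_L than in ESC. The 7 endoderm markers averaged 7.74 and 7.50 in pNSC_L, against 7.19 and 7.34 in ESC, with 3 higher and none lower. Of the 4 neuronal markers (Dcx, Tubb3, Map2, Neurod1) 2 were lower by limma and none higher, and their mean was 7.12 and 7.15 in pNSC_L, against 8.05 and 8.05 in ESC. Of the other lists, astroglia had 1 of 5 higher, mesoderm 1 of 4 and surface ectoderm 1 of 5, with none lower. The part of these markers in the differences of the Id and BMP genes was not tested.

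Fst was the 1 listed gene called in pNSC_LF against pNSC_L, the step in which Id3 rose. It read 9.93 and 10.13 in pNSC_LF, against 8.57 and 8.84 in pNSC_L, a rise of 1.33 ± 0.14 (2.51-fold, adjusted p = 0.0021 by limma). Follistatin binds activins tightly and some BMPs more weakly. In this step 1 of the 10 fibroblast markers was lower by limma. Of the ES cell markers and of the surface ectoderm markers 1 of 5 each was higher, where 1.78% of all genes were called. The part of these markers in the rise of Id3 was not tested.

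In the step to dNSC, where Bmp4 fell, 5 of the 12 other ligands rose and none fell, a share (41.7%) near the 38.6% of all genes called, against which the list counts that follow are also to be read. Bmp2 read 9.36 and 9.48 in dNSC, against 7.13 and 7.19 in pNSC_LF, a rise of 2.26 ± 0.11 (4.78-fold, adjusted p = 2.6e-07 by limma). Bmp5, a ligand close to Bmp7, read 8.92 and 8.93 in dNSC, against 6.57 and 6.59 in pNSC_LF, a rise of 2.34 ± 0.16 (adjusted p = 1.6e-06 by limma). Both stood higher in dNSC than on every array of the other 4 groups. Of the receptors and co-receptors 8 of 11 rose, as Bmpr1a did, and 1 fell. That was Eng, the co-receptor endoglin, which read 7.66 and 7.78 in dNSC, against 10.48 and 10.60 in pNSC_LF, and changed by -2.82 ± 0.14 (7.08-fold lower, adjusted p = 2.9e-07 by limma).

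Of the Smads and nuclear partners 7 of 10 rose in this step and 1 fell, with Smad5, a receptor-regulated Smad of the BMP branch, higher by 1.18 ± 0.10 (adjusted p = 8.7e-06 by limma). Of the 16 antagonists and modulators 7 rose, as Nog did, and none fell. Cer1, a secreted antagonist of BMP and Nodal made by anterior visceral endoderm in the embryo, read 9.38 and 9.34 in dNSC, against 6.44 and 6.43 in pNSC_LF, and rose by 2.93 ± 0.12 (7.60-fold, adjusted p = 9.2e-08 by limma). Bmp1, which despite its name is a protease that frees BMPs by cutting chordin, rose by 2.08 ± 0.13 (adjusted p = 8.9e-07 by limma). Of the 12 other targets 6 rose and none fell, with a median difference of 0.38 over the 12. Zeb2, a Smad-binding repressor, had the largest difference of this list and does not stand for it. It read 10.60 and 10.65 in dNSC, against 6.24 and 6.52 in pNSC_LF, and was 4.24 ± 0.14 higher (adjusted p = 2.5e-08 by limma). Whether BMP had a part in the rise of Zeb2 was not tested. The pNSC_LF values of Cer1, Bmp5 and Zeb2 lie below the lower quartile of gene levels, so the sizes of these rises are less sure than their direction.

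The 7 endoderm markers averaged 8.22 and 8.25 on the dNSC arrays, against 7.54 and 7.56 in pNSC_LF, with 4 higher and none lower, and the 10 fibroblast markers 8.49 and 8.42 in dNSC, against 7.42 and 7.38 in pNSC_LF, with 8 higher and 1 lower by limma. The 4 neuronal markers averaged 8.96 in dNSC, against 7.01 in pNSC_LF (means of 2 arrays), and all 4 were higher. Of the 5 surface ectoderm markers 3 were higher and 1 lower by limma, with means of 9.14 and 9.10 in dNSC, against 9.10 and 9.07 in pNSC_LF. All 6 neural stem cell markers rose and all 5 ES cell markers fell in the same step. Astroglia had 2 of 5 lower and none higher, and mesoderm 1 of 4 higher and 1 lower. These counts stand beside 38.6% of all genes called, 19.3% in each direction. Whether the Id and BMP genes moved in the same cells as these markers was not tested.

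**Figure D4:**
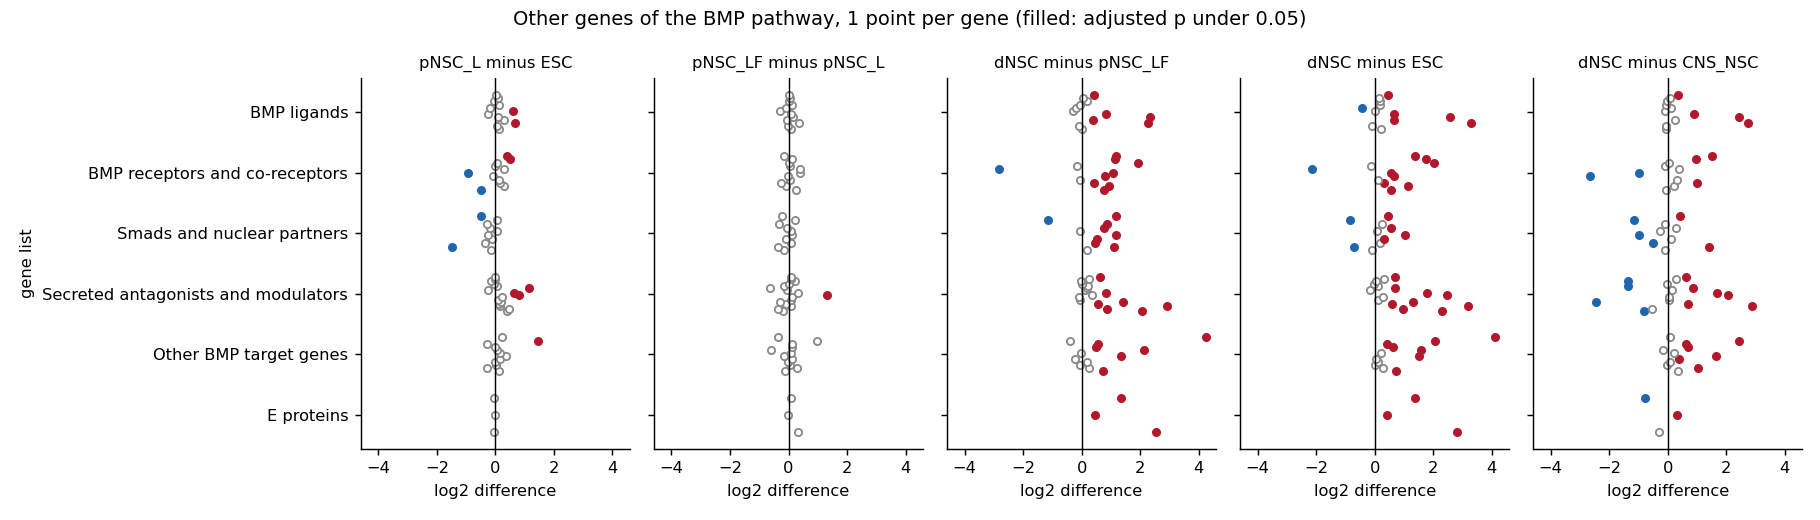
Log2 difference of the 64 other measured genes by list in 5 comparisons, 1 point per gene; red points are higher and blue points lower in the first group at limma adjusted p below 0.05, and open points did not pass. In dNSC minus pNSC_LF 36 genes lie on the higher side as called and 2 on the lower.

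Against ESC, dNSC had 36 of the 64 listed genes higher and 4 lower (62.5% called, against 40.5% of all genes), with a median difference of 0.44, against 0.03 over all genes. Against CNS_NSC, dNSC had 22 higher and 10 lower (50% called, against 34% of all genes), with a median of 0.10, against -0.01 over all genes. Bmp2 was 2.75 ± 0.11 higher in dNSC (6.71-fold, adjusted p = 7.2e-08 by limma), at 9.36 and 9.48 in dNSC, against 6.53 and 6.81 in CNS_NSC. Cer1 was 2.88 ± 0.12 higher (adjusted p = 8.4e-08 by limma) and Fst 2.06 ± 0.14 higher (adjusted p = 2.2e-06 by limma). The CNS_NSC means of Bmp2 and Cer1 lie below the lower quartile of gene levels, so the sizes of these differences are less sure than their direction. Bmpr1b, another type I BMP receptor, was lower in dNSC, at 6.86 and 6.81, against 9.60 and 9.37 in CNS_NSC (-2.65 ± 0.11, adjusted p = 8.9e-08 by limma). Chrdl1, a chordin-like antagonist, was lower in dNSC (-2.44 ± 0.23, adjusted p = 1.9e-05 by limma). Relative to embryo-derived cells, dNSC thus had more Id4, Bmp4, Bmp2, Smad6, Smad7 and Nog signal and less Id1, Id3 and Bmpr1b signal. Id2, Bmp7 and Bmpr1a did not pass the test. As given above, the calls on Id4, Bmp4 and Nog were lost without single dNSC arrays. Strain, line, origin and B27 differ together between these groups and cannot be told apart. The endoderm markers averaged 8.22 and 8.25 in dNSC, against 7.21 and 7.25 in CNS_NSC, with 6 of 7 higher by limma. The 5 ES cell markers averaged 9.42 and 9.36 in dNSC, against 7.19 and 7.23 in CNS_NSC, with 4 higher. The 10 fibroblast markers averaged 8.49 and 8.42 in dNSC, against 7.54 and 7.60 in CNS_NSC, with 7 higher and 2 lower. Of the other lists, neurons had 2 of 4 higher and 1 lower, mesoderm 2 of 4 higher, surface ectoderm 3 of 5 higher and astroglia 3 of 5 lower. The part of these markers in the differences was not tested.

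**Figure D5:**
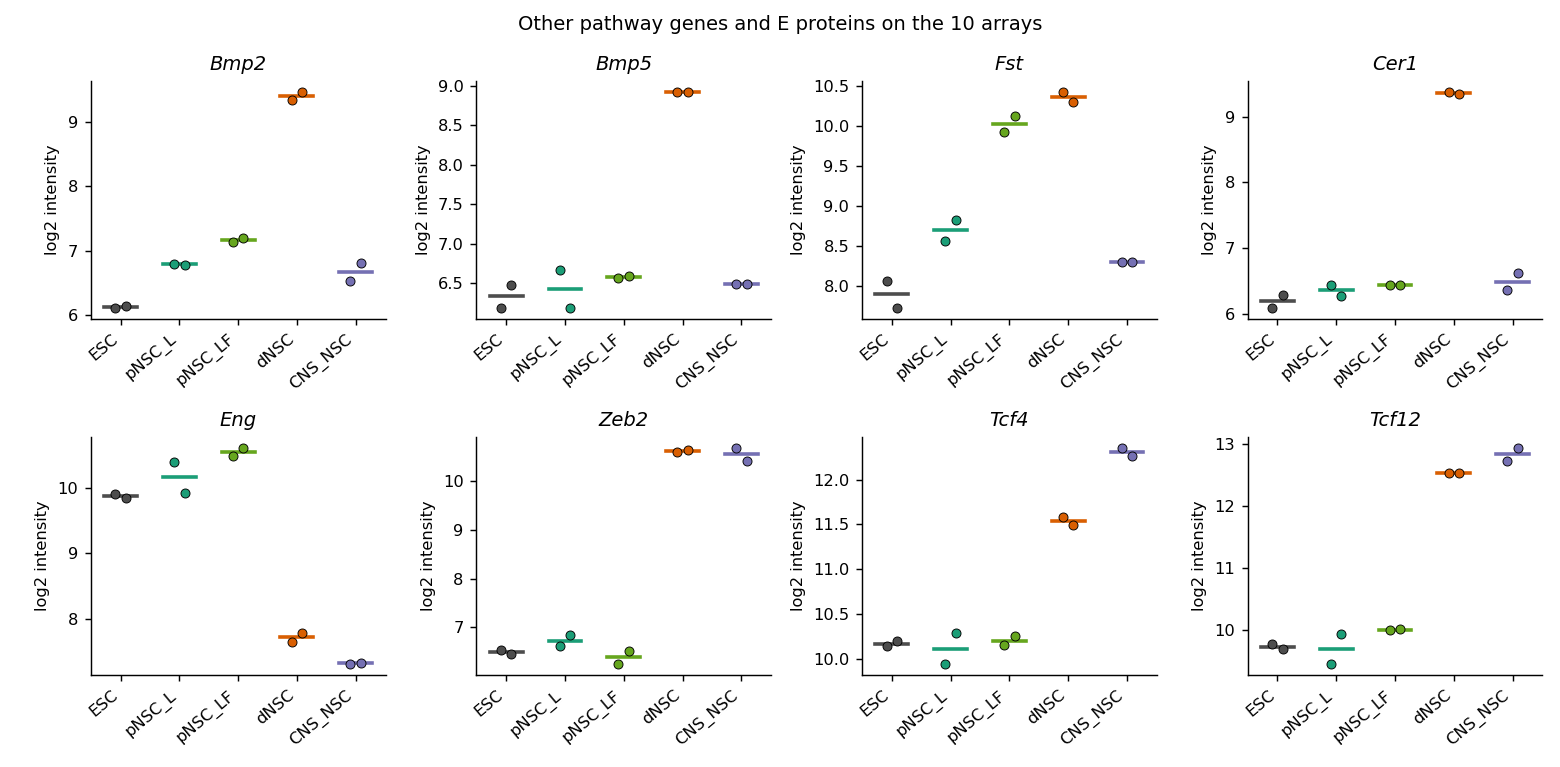
Log2 intensity of 8 other genes (Bmp2, Bmp5, Fst, Cer1, Eng, Zeb2, Tcf4 and Tcf12) by group; points are single arrays and bars the mean of 2 arrays, on vertical axes that differ between genes and do not start at 0. Bmp2, Bmp5 and Cer1 are high in dNSC only, while Zeb2, Tcf4 and Tcf12 are high in both dNSC and CNS_NSC.

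The genes nearest to each Id gene in pattern were sought by the distance between the 5 group means, each centred on its own gene's mean. The search covered 5510 genes whose means spanned at least 1 log2 unit, without symbols of the predicted kind (Gm plus digits, LOC, or ending in Rik). For Id1 the nearest genes were Kbtbd7 (0.34 log2 units away), Spry4 (0.41) and Anxa2 (0.44). For Id2 they were Serf1 (0.34), Nsd2 (0.34) and Sos2 (0.39). Id3 had no gene as near, its closest being Pon2 (0.60), Glrb (0.80) and Celf2 (0.82). The distance is not scaled to the span of the means, which was widest for Id3 among the Id genes (3.87 log2 units). For Id4 they were Klk1b22 (0.48), Chga (0.56) and Psen2 (0.64); Klk1b22 belongs to a kallikrein family of near-identical copies, so its signal may be shared between copies. Spry4, an inhibitor of receptor tyrosine kinase signalling, had group means of 11.82 in ESC, 10.60 in pNSC_L, 11.04 in pNSC_LF, 11.03 in dNSC and 12.35 in CNS_NSC. These are likenesses over 5 group means and were given no test.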

How the data were processed

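RNA from 10 cultures was hybridised to Affymetrix whole-transcript arrays, per the labels' protocols. The deposited values are log2 intensities per probe set; RMA and Partek are named, without versions, per the submitters' processing notes, and base 2 was inferred from their range. For the genome build behind the annotation, nothing is given in the sources used; promoter coordinates are those of RefSeq GRCm38.p6. Of 35556 probe sets, the 21789 with 1 gene symbol were used, keeping per gene the one with the highest mean, which left 19938 genes with no filter on low values.

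limma 3.58.1 (R 4.3.3) fitted the 10 arrays with a mean for each group and 1 shared spread (5 residual and 4.9 prior degrees of freedom), with Benjamini-Hochberg adjustment over all genes per comparison and a threshold of 0.05. The fit was tested on simulated data. Tables used pandas 2.3.3 and plots matplotlib 3.10.9, under Python 3.11.15. All 10 genes are covered in each of the 5 comparisons, some only by a statement that they did not pass. Of each list, up to 2 called genes with the largest rise and 2 with the largest fall could be named. The text names a part of these. Tcf3 was named after its values were seen, as was Tcf12 in dNSC against CNS_NSC. The genes and lists were chosen with earlier results of these data known.

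Alternatives were quantile normalization, a filter on the dimmest 30% of genes, a trended prior, the replicate number as a block, only the groups compared, averaged probe sets per gene, and each array left out in turn; leaving CNS_NSC out of the fit was added after seeing the data.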

Additional observations from a re-analysis of the deposited data

How the results depend on the processing

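Of 540 recomputed differences of the 10 genes, 504 kept their side of the threshold, 22 lost the call and 14 gained it. No difference called in either fit changed direction. Sign changes of uncalled differences were not counted, such as Smad6 in pNSC_L against ESC (0.04, but -0.12 without pNSC_L replicate 2). Only quantile normalization and leaving out an array could change the size or direction of a difference. With 1 probe set per gene, averaging probe sets returned the same differences. Recomputed differences that changed a call stand beside their results or follow here. For pNSC_L against ESC limma called 2662 genes, 1480 with only the 2 groups fitted, and 1102 (without ESC replicate 1) to 3290 (without pNSC_L replicate 2) with an array left out; of the 64 listed genes 12 were called, 7 with only the 2 groups and 6 to 15 with an array left out. For pNSC_LF against pNSC_L the counts were 355, 99 with only the 2 groups, 577 with CNS_NSC left out, and 48 (without pNSC_LF replicate 1) to 826 (without pNSC_L replicate 2); of the listed genes 1 was called, 3 after quantile normalization, 2 each with the dimmest 30% of genes left out, with the replicate block or with CNS_NSC left out, and 1 to 5 with an array left out. An arm left with 1 array was assumed to vary like the others. Same-numbered arrays did not deviate together in every pair of groups (correlations from -0.11 to 0.38, 6 of 10 over 0.1), and the labels do not say what a number marks, so whether they are paired is not settled. With the number as a replicate block 2958, 407, 7943, 8362 and 7108 genes were called in the 5 comparisons, in the order of the text, and of the 10 genes the block changed 1 call, that of Bmpr1a in dNSC against CNS_NSC (adjusted p = 0.046 by limma). The share of called genes higher in pNSC_LF than in pNSC_L was 62.0%, 75.8% with only the 2 groups, and 49.5% to 82.9% with an array left out. The cause of these changes was not tested. Signal near the lower quartile limits the sizes for Id3 in pNSC_L.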
